A study of Mus musculus with 6 samples.

Results

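The genes described here encode 10 enzymes that take glucose to lactate: Hk2, Gpi1, Pfkl, Aldoa, Tpi1, Gapdh, Pgk1, Eno1, Pkm and Ldha. They were chosen by gene symbol, and the symbol Aldoa stands on 2 gene identifiers, so the 10 symbols gave 11 gene entries of the 55487 in the deposited table. All 11 entries passed the filter on low values, which asked for a mean of 3 or more across libraries, and were among the 18766 genes tested. The deposited unit is the rlog, a regularized logarithm to base 2, in which a difference of 1 is a doubling and low genes are pulled toward their mean.

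Total RNA was sequenced from cultures begun with mouse bone marrow cells positive for the receptor Kit, a marker of haematopoietic stem and progenitor cells. Cells of both groups received an overexpressing lentivirus, which carried MLLT3 in its wild type form in 3 libraries (WT) and MLLT3 with both K63E and K67E in 3 libraries (DM). MLLT3 is a chromatin reader whose YEATS domain binds acylated histones. After sorting, both groups grew for 8 days in methylcellulose with mFlt3L at 10 ng/mL, with mIL-11, mIL-6, mIL-3, mGMCSF, mSCF, hEPO and hTPO at 20 ng/mL each, with gentamycin at 50 µg/mL, and with 4-hydroxytamoxifen at 200 nM, which per the labels deletes the endogenous Mllt3. The WT group is thus a rescue by a vector and not a set of unaltered cells, and no group with intact Mllt3 and no vector is part of the comparison. The labels name no strain, age or driver of the deletion, and do not say whether replicates came from separate mice, so the p-values measure the spread between these libraries only. The labels place all 6 libraries in batch 1.

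Glycolysis splits glucose into pyruvate in the cytosol, with a preparatory phase that spends ATP and a later phase that returns it, and lactate dehydrogenase then turns pyruvate into lactate. Hypoxia-inducible factor 1 and Myc are known activators of many of these genes. Haematopoietic progenitors and neutrophils are known to lean on glycolysis, while macrophages change their use of it with their state. The question here is how transcript levels of these genes differ between cells that carry the mutant and the wild type protein.

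Of the 11 entries, 3 fell in DM at a limma adjusted p under 0.05 (Gpi1, Pgk1 and Pfkl), none rose, and 8 did not pass. Among all genes tested 13.9% passed in either direction, 4.71% as lower in DM and 9.2% as higher. Higher genes made up 66.1% of all called genes, and 51.3% after quantile normalization. The median change of the 11 entries was -0.19, and -0.21 without the second Aldoa entry, against 0.01 over all genes tested. The log2 of their summed linear values, which weighs the highest entries most, overlapped between groups. It ran from 17.65 to 17.84 in WT and from 17.63 to 17.75 in DM, a change of -0.09. Hk2 and Tpi1 had all DM values under all WT values but adjusted p values just above the threshold. Both Aldoa entries, Gapdh, Eno1, Pkm and Ldha had overlapping groups and intervals of the change that included 0. The call of Gpi1 held in each alternative, and those of Pgk1 and Pfkl did not. The number of called entries was 1 (Gpi1) when WT replicate 1 or any single DM library (replicate 1, 2 or 3) was left out. It was 2 when WT replicate 2 was left out and 4 when WT replicate 3 was. It was also 1 with no filter on the mean, and it was 5 with a filter at a mean of at least 5, with no mean-variance trend or after centring on the median (Hk2 and Tpi1 in addition), and 8 after quantile normalization (Hk2, Aldoa, Tpi1, Eno1 and Ldha in addition).

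Upstream sequence is shown for 2 genes that fell, Gpi1 and Pgk1, and for 2 that did not pass, Gapdh and Ldha, because hypoxia-inducible factor 1 is known to bind a short core, ACGTG or GCGTG, in promoters of glycolysis genes. Each line gives the 250 bases before a RefSeq start site on GRCm38.p6, 5′ to 3′ on the strand of the gene, and capitals mark ACGTG or GCGTG on either strand (CACGT and CACGC where the core lies on the opposite strand).
Gpi1, chr7:34230337-34230586, minus strand: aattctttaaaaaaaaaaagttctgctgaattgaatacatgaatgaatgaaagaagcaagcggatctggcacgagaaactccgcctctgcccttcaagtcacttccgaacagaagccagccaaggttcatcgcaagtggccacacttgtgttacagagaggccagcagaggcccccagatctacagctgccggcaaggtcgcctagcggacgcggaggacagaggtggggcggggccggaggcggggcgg
Pgk1, chrX:106186850-106187099, plus strand: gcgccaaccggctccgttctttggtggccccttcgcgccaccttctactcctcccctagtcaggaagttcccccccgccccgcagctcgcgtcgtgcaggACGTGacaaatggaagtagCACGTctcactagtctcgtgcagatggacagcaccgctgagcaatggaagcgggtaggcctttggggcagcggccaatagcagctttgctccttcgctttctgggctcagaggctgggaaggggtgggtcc
Gapdh, chr6:125165774-125166023, minus strand: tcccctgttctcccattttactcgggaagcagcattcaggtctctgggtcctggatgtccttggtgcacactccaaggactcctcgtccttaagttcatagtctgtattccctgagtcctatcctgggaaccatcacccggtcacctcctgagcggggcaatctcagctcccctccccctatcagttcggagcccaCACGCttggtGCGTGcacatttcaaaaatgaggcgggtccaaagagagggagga
Ldha, chr7:46845554-46845803, plus strand: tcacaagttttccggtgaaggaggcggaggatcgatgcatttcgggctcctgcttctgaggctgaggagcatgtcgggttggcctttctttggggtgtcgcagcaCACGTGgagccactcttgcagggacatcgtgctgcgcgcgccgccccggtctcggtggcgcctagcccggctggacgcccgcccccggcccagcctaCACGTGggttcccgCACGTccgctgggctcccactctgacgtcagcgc

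The Gpi1 window held neither core, and it overlaps an exon of the noncoding gene Gm12762 in GENCODE M21; the other windows shown overlap no annotated exon, and those of Gapdh and Ldha belong to start sites inside the annotated gene. The Pgk1 window held ACGTG at bases 150 to 146 before the start and its complement at bases 131 to 127. The Gapdh window held GCGTG in both orientations, at bases 54 to 50 and 44 to 40. In the Ldha window, CACGTG, a palindrome bound by Myc with Max that contains ACGTG on both strands, stood at bases 145 to 140 and 48 to 43, and a further ACGTG, on the opposite strand, at bases 34 to 30. RefSeq gave 16 start sites for the 10 genes. ACGTG was found upstream of 5 genes (Hk2, Aldoa, Pgk1, Pkm and Ldha), in 6 of the 16 windows, and in 16.6% of all 32851 windows of the same length. GCGTG was found upstream of 4 genes (Pfkl, Gapdh, Eno1 and Ldha), in 6 of 16 windows, against 28.2% of all windows, and CACGTG in 1 of 16 against 6.02%. Some windows of Aldoa and of Eno1 overlap each other, so the same sites are counted more than once. The GC content of the windows of the members ran from 50.4% to 71.2%, against a median of 52.4% over all windows. The shares were not matched for GC content, so they do not show an excess of either core. A core was thus present upstream of genes that fell (Pgk1, Pfkl) and of genes that did not pass (Gapdh, Ldha). A match is only a run of letters in this window, and binding was not measured.

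In the preparatory phase, Hk2 (ENSMUSG00000000628.10; chromosome 6, 82725025 to 82774454, minus strand on GRCm38) encodes hexokinase 2, which phosphorylates glucose and so keeps it in the cell. Its rlog values were 12.14, 12.27 and 12.11 in WT, against 11.94, 11.90 and 11.98 in DM. The groups did not overlap, and the change of -0.23 (SE 0.0718, 95% interval -0.39 to -0.07) had a limma adjusted p of 0.0606. It passed the threshold in 5 of 12 alternatives, among them the filter at a mean of at least 5 (adjusted p 0.0421) and centring on the median (-0.26, adjusted p 0.0162).

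Gpi1 (ENSMUSG00000036427.5; chromosome 7, 34201330 to 34230336, minus strand) encodes glucose-6-phosphate isomerase, which makes fructose 6-phosphate. Its values were 14.55, 14.59 and 14.37 in WT, against 13.97, 14.01 and 13.98 in DM. Every DM library lay below every WT library, and the spread was smaller in DM (SD 0.0216, n = 3) than in WT (SD 0.118, n = 3). Gpi1 fell by 0.51 (SE 0.0845, limma adjusted p 0.00622), and on the linear scale it decreased by 30%. It was the member with the lowest change, at percentile 1.69 of all genes tested, and it was called in each of the 12 alternatives (changes from -0.69 to -0.47, adjusted p from 0.000223 to 0.031).

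Pfkl (ENSMUSG00000020277.10; chromosome 10, 77986947 to 78010083, minus strand) encodes the liver type subunit of phosphofructokinase, the main control step of the pathway. It had values of 11.89, 11.84 and 11.79 in WT, against 11.51, 11.57 and 11.60 in DM. The groups did not overlap, and Pfkl fell by 0.28 (SE 0.0659, limma adjusted p 0.0221). The call was lost in 5 of 12 alternatives, where the change still lay between -0.30 and -0.25. The adjusted p was 0.108 when WT replicate 1 was left out, 0.0841, 0.0839 and 0.0594 when DM replicate 1, 2 or 3 was left out, and 0.0605 with no filter on the mean.

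**Figure D1:**
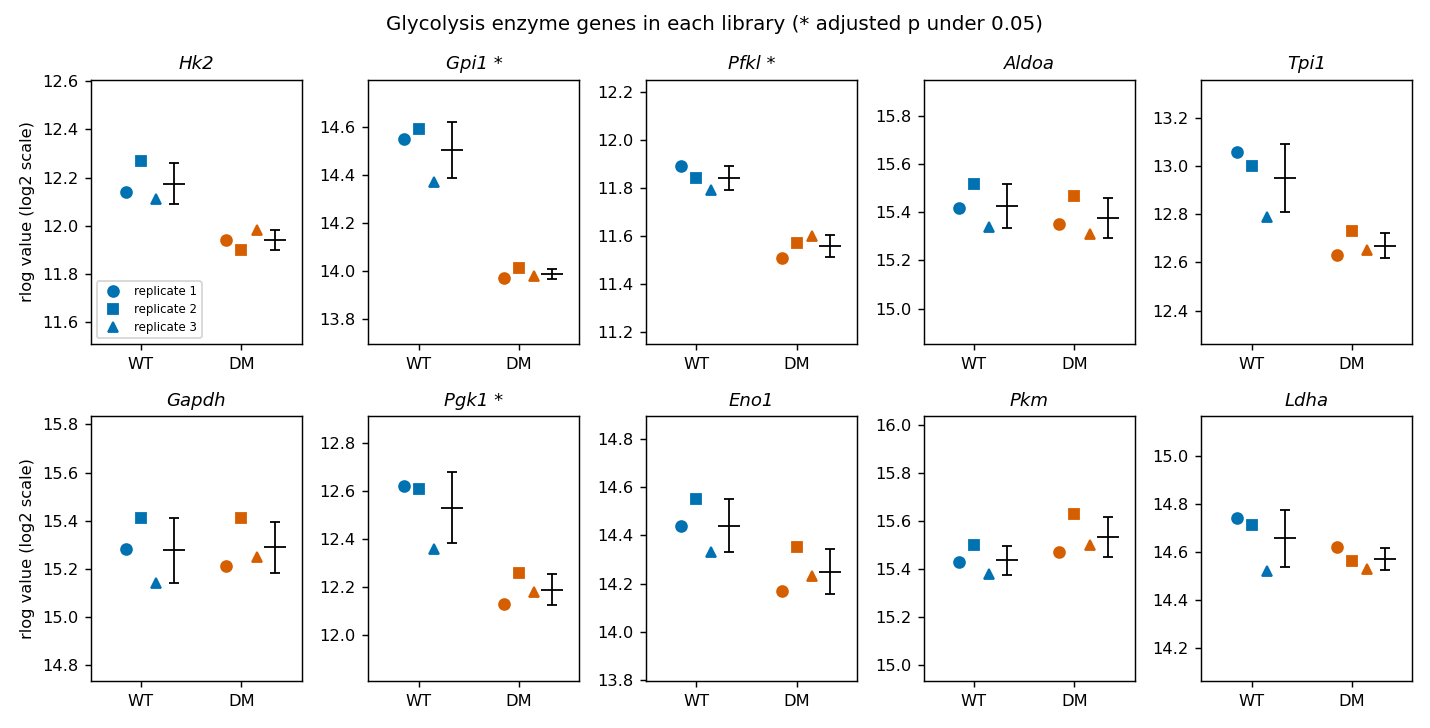
Each panel shows 1 gene, with the rlog value (log2 scale, all panels spanning the same range) of the WT libraries in blue and the DM libraries in orange, symbols for replicate numbers, and black bars for the mean and SD (n = 3). Gpi1, Pfkl and Pgk1 are starred as past the threshold, and the DM libraries also lie under the WT libraries for Hk2 and Tpi1, while the groups overlap for Aldoa, Gapdh, Eno1, Pkm and Ldha.

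Aldolase A splits fructose 1,6-bisphosphate into triose phosphates. The main Aldoa entry (ENSMUSG00000030695.16; chromosome 7, 126795234 to 126800751, minus strand) had values of 15.42, 15.52 and 15.34 in WT, against 15.35, 15.47 and 15.31 in DM. The groups overlapped, and the change was -0.05 (95% interval -0.26 to 0.16, limma adjusted p 0.749). After quantile normalization it was -0.24 (adjusted p 0.0274). The second entry (ENSMUSG00000114515.2; chromosome 7, 126800790 to 126809108, minus strand) lies just upstream of the main one and had values from 3.62 to 3.76, near the lower limit of the test, with a change of -0.04 (adjusted p 0.576).

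Tpi1 (ENSMUSG00000023456.16; chromosome 6, 124810586 to 124814296, minus strand) encodes triosephosphate isomerase, which interconverts the triose phosphates. Its values were 13.06, 13.00 and 12.79 in WT, against 12.63, 12.73 and 12.65 in DM. The lowest WT value was above the highest DM value by a small margin, and the change of -0.29 (SE 0.0857, 95% interval -0.48 to -0.09) had a limma adjusted p of 0.0536. Tpi1 passed in 6 of 12 alternatives, with changes from -0.41 to -0.23 and adjusted p values from 0.00413 to 0.197 over all of them.

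In the phase that returns ATP, Gapdh (ENSMUSG00000057666.18; chromosome 6, 125161715 to 125166467, minus strand) encodes the dehydrogenase that makes 1,3-bisphosphoglycerate, and it is often used as a reference gene. Its values were 15.28, 15.41 and 15.14 in WT, against 15.21, 15.41 and 15.25 in DM. The groups overlapped almost fully, with a change of 0.01 (95% interval -0.22 to 0.24, limma adjusted p 0.952). The sign depended on the scaling: the change was -0.18 after quantile normalization (adjusted p 0.0835).

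Pgk1 (ENSMUSG00000062070.12; chromosome X, 106187100 to 106203699, plus strand) encodes phosphoglycerate kinase 1, the first step that makes ATP. Its values were 12.62, 12.61 and 12.36 in WT, against 12.13, 12.26 and 12.18 in DM. WT replicate 3 stood closer to the DM libraries than the other WT libraries did, and the groups did not overlap. Pgk1 fell by 0.34 (SE 0.0857, limma adjusted p 0.0282), and on the linear scale it decreased by 20.9%. The call was lost in 6 of 12 alternatives, with no filter on the mean (adjusted p 0.0501) and without WT replicate 1 (0.12), WT replicate 2 (0.0507), DM replicate 1 (0.0916), DM replicate 2 (0.0636) or DM replicate 3 (0.096).

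Eno1 (ENSMUSG00000063524.13; chromosome 4, 150236721 to 150248879, plus strand), for the enolase that makes phosphoenolpyruvate, had values of 14.44, 14.55 and 14.33 in WT, against 14.17, 14.35 and 14.23 in DM. The groups touched, since the lowest WT value was just under the highest DM value, and the change of -0.19 (95% interval -0.39 to 0.01) had a limma adjusted p of 0.198. Eno1 passed after quantile normalization (-0.34, adjusted p 0.00701). Pkm (ENSMUSG00000032294.17; chromosome 9, 59656368 to 59679375, plus strand), for the muscle pyruvate kinase, had values of 15.43, 15.50 and 15.38 in WT, against 15.47, 15.63 and 15.50 in DM. It was the member with the highest change, 0.10 (95% interval -0.11 to 0.30, limma adjusted p 0.5), and -0.09 after quantile normalization. The table holds 1 value per gene, so the PKM1 and PKM2 splice forms could not be separated. Ldha (ENSMUSG00000063229.15; chromosome 7, 46841475 to 46855627, plus strand), for the lactate dehydrogenase subunit that favours lactate, had values of 14.74, 14.71 and 14.52 in WT, against 14.62, 14.56 and 14.53 in DM. The DM values lay within the range of the WT values, with a change of -0.09 (95% interval -0.28 to 0.11, limma adjusted p 0.541), and Ldha passed only after quantile normalization (-0.27, adjusted p 0.0195).

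**Figure D2:**
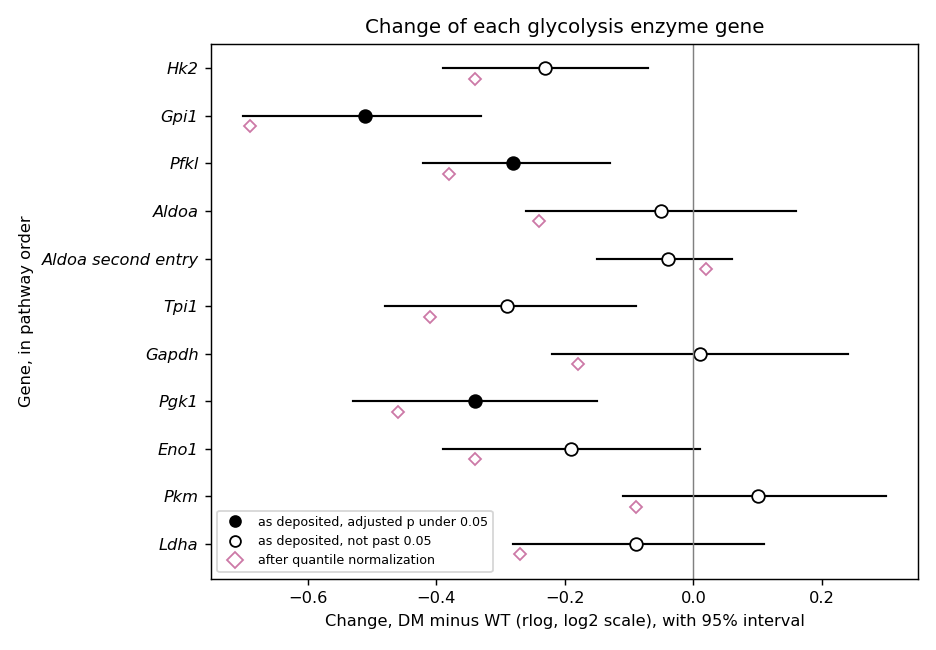
Circles show the change of each entry (DM minus WT, rlog on the log2 scale) with its 95% interval, filled where the adjusted p was under 0.05, in the order of the pathway, and diamonds show the change after quantile normalization. Gpi1 is the farthest from 0 at -0.51, and quantile normalization places all main entries further down, with Gapdh at -0.18 and Pkm at -0.09.

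In all, 5 of the 11 entries had no overlap between groups, each lower in DM (Hk2, Gpi1, Pfkl, Tpi1 and Pgk1), where 35.8% of all genes tested did not overlap in either direction and 14.3% were lower without overlap. The libraries of 1 group varied together across the members. WT replicate 3 was the lowest WT library for all 10 genes, and DM replicate 1 was the lowest DM library for 7. WT replicate 3 also had the lowest median over all genes tested, 8.03, against 8.07 and 8.10 for WT replicates 1 and 2. Averaged over the 10 main entries and relative to each gene's mean over the 6 libraries, the rlog value was 0.13, 0.17 and -0.02 for WT, in the order of the replicate numbers, and -0.13, -0.04 and -0.11 for DM.

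To compare members within a library, each gene was also read relative to Gapdh in the same library, a choice made after the values were seen. Gpi1 lay -0.73, -0.82 and -0.77 from Gapdh in WT and -1.23, -1.40 and -1.27 in DM, a difference of -0.53. Eno1, whose groups touched on the plain scale, lay -0.84, -0.86 and -0.82 from Gapdh in WT and -1.03, -1.06 and -1.02 in DM, so that they were apart on this scale. The groups did not overlap, with DM lower, for 6 of the 10 other entries (Hk2, Gpi1, Pfkl, Tpi1, Pgk1 and Eno1), and this held for 5.59% of all genes tested. Aldoa, Pkm and Ldha overlapped between the groups relative to Gapdh too. A ratio to Gapdh shows unequal change of the pair, and it does not show which gene moved.

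**Figure D3:**
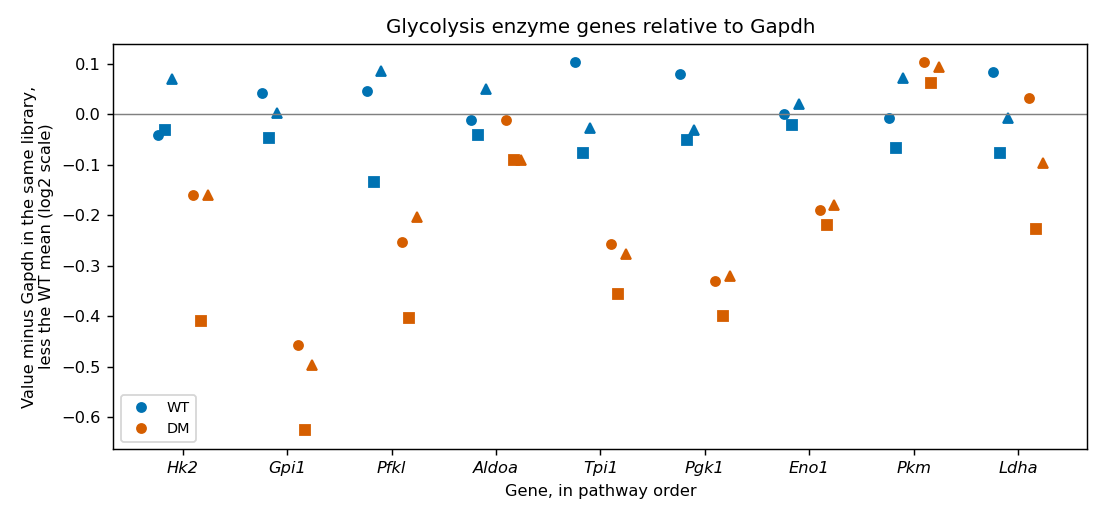
For each gene in pathway order, points show its rlog value minus that of Gapdh in the same library, less the WT mean of that difference (log2 scale), with WT in blue, DM in orange and symbols for replicates 1 (circle), 2 (square) and 3 (triangle). DM points lie below all WT points for Hk2, Gpi1, Pfkl, Tpi1, Pgk1 and Eno1, by -0.53 on average for Gpi1, and overlap for Aldoa, Pkm and Ldha.

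Levels of different genes were compared per kilobase of merged exons, as the mean rlog value less log2 of that length. In WT the order from the top was Aldoa (13.89 ± 0.0891, SD, n = 3), Gapdh (13.23 ± 0.133), Pkm (13.11 ± 0.0635), Ldha (12.93 ± 0.121), Eno1 (12.01 ± 0.111), Gpi1 (11.81 ± 0.118), Tpi1 (11.49 ± 0.143), Pgk1 (11.36 ± 0.144), Hk2 (9.60 ± 0.0883) and Pfkl (9.10 ± 0.049). The WT values of Gapdh and Pkm overlapped, as did those of Tpi1 and Pgk1, and the other neighbours were apart on this length. The order in DM was the same. With the length of the longest principal transcript, added after the values were seen, Hk2 and Pfkl changed places in WT (9.71 and 9.94). On that length Aldoa and Gapdh were also closer than their SDs, at 14.83 and 14.77 in WT and at 14.78 each in DM, so the top place was not separated. The genes that fell stood at places 6 (Gpi1), 8 (Pgk1) and 10 (Pfkl) of this order, and those at places 1 to 5 were the genes whose groups overlapped.

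Copies elsewhere in the genome limit the values of some members. Of the 50-base windows in the principal transcript, 82.5% for Gapdh, 72.2% for Eno1, 68% for Pgk1 and 34.4% for Pkm occur unchanged in a transcript of another gene in GENCODE M21, and 19.3% or fewer for each other member. The gene sharing most was Gm7336 for Gapdh, Eno1b for Eno1 and Pgk1-rs7 for Pgk1. How the authors treated reads that match several places is not given in the sources used here, so the values of Gapdh, Eno1, Pgk1 and Pkm are uncertain. The mean rlog value of the copies in WT was 10.20 ± 0.206 (SD, n = 3) for Gm7336, 8.66 ± 0.183 for Eno1b and 5.98 ± 0.169 for Pgk1-rs7, with changes of -0.25, -0.07 and -0.13 that did not pass (limma adjusted p 0.208, 0.621 and 0.374). Of the listed named copies, 6 of 9 were tested and 0 passed with limma (1 had an unadjusted p under 0.05, Gapdh-ps15, with a change of 0.11). Gapdh-ps15 passed after quantile normalization (adjusted p 0.0478). The other tested copies, Aldoart1, Ldha-ps2 and Tpi-rs11, had changes of 0.01, 0.02 and -0.03. Genes on the opposite strand overlap Hk2 (Gm17034, mean 3.00), Tpi1 (Spsb2, 8.93), Aldoa (Fam57b, 6.59) and Gapdh (Iffo1, 9.21), and the second Aldoa entry also overlaps Gm44856 (-1.49). Gpi1 overlaps the noncoding gene Gm26762 on the opposite strand, whose level was not analysed here. On the same strand, Gm49759 (mean 9.34) overlaps Pkm. Reads of overlapping genes cannot be told apart in these values where strand was not used, and whether the counting used strand is not given in the sources used here.

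Other isoforms and side enzymes of the pathway were read from a separate list. Of 19 listed isoforms and side enzymes, 15 were tested, of which 1 fell and 0 rose, and their median change was -0.08. The median was -0.13 when DM replicate 3 was left out and -0.04 with a filter at a mean of at least 5. The 1 that fell was Adpgk, which encodes an enzyme that phosphorylates glucose with ADP. Its values were 10.98, 11.40 and 11.28 in WT, against 10.27, 10.44 and 10.67 in DM, with a change of -0.76 (SE 0.125, limma adjusted p 0.00626), and it was called in each of the 12 alternatives. The groups did not overlap, and the change was lower than that of each member.

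For Hk1, Hk3, Pfkp, Pfkm, Pgam1, Aldoc and Ldhb the groups overlapped. Per kilobase in WT, the hexokinase genes Hk3 (10.70 ± 0.185, SD, n = 3) and Hk1 (10.38 ± 0.0361) stood above Hk2, and their rlog changes were -0.12 (95% interval -0.36 to 0.12, limma adjusted p 0.475) and 0.06 (-0.13 to 0.24, adjusted p 0.694). For phosphofructokinase, Pfkp stood at 8.70 ± 0.132 and Pfkm at 7.21 ± 0.0424 per kilobase, under Pfkl, with changes of -0.06 and -0.08 (adjusted p 0.652 and 0.529). The place of Pfkp rests on its merged exon length of 13.4 kb, against 6.67 kb for Pfkl. Before division by length its WT mean was 12.45, against 11.84 for Pfkl. The length of the principal transcript was not applied to Pfkp, so the order of these 2 genes is not settled. Pgam1, the mutase between Pgk1 and Eno1 in the pathway, had a change of 0.13 (-0.06 to 0.33, adjusted p 0.327), and Bpgm, which makes 2,3-bisphosphoglycerate, one of 0.14 (adjusted p 0.214), with groups that did not overlap. The change was 0.06 for Aldoc and 0.04 for Ldhb (adjusted p 0.755 and 0.776). Eno2, Eno3, Pklr, Ldhc and Hkdc1 were low, with WT means from 4.72 to 6.72 and changes from -0.20 to -0.04, none past the threshold, and Gapdhs, Pgk2 and Pgam2 were below the filter, with values of 2.62 or less.

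Carriers at both ends of the pathway split by gene. Of 10 genes for glucose and lactate transport, 9 were tested, 3 fell, 0 rose and the median change was 0.15. The median was 0.03 after quantile normalization, 0.06 with no filter on the mean and 0.10 when WT replicate 3 was left out. The number called was 1 when WT replicate 1 or DM replicate 2 was left out, 5 with a filter at a mean of at least 5 and 6 with a replicate block. Slc2a3, the high-affinity glucose carrier GLUT3, had values of 12.05, 12.02 and 12.24 in WT, against 11.72, 11.66 and 11.56 in DM, with a change of -0.45 (SE 0.0817, limma adjusted p 0.00817) that was called in each of the 12 alternatives. Slc16a3, the lactate exporter MCT4, had values of 11.66, 11.72 and 11.69 in WT, against 11.09, 11.39 and 11.46 in DM, with a change of -0.38 (adjusted p 0.0266). Slc16a1, the monocarboxylate carrier MCT1, had values of 10.61, 10.50 and 10.11 in WT, against 9.93, 10.03 and 9.83 in DM, with a change of -0.48 (adjusted p 0.0274). None of these carriers had overlapping groups. Slc16a3 lost its call without WT replicate 1 (adjusted p 0.0726), DM replicate 1 (0.0653) or DM replicate 2 (0.0581), and Slc16a1 lost it without any 1 of 5 libraries (0.0537 to 0.104), WT replicate 3 being the exception.

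Other carriers had higher DM means that did not pass. Slc2a1, the broadly used glucose carrier GLUT1, had values of 11.70, 11.81 and 11.62 in WT, against 11.85, 11.97 and 11.95 in DM, with a change of 0.22 (95% interval 0.05 to 0.38, limma adjusted p 0.0839). The change was 0.22 for Slc2a6 (adjusted p 0.0644), 0.31 for Slc16a7 (0.0569) and 0.16 for Bsg, the chaperone of the lactate carriers (0.199), each with groups that did not overlap. These carriers passed as higher in some alternatives: Slc2a1 in 2 of 12 (lowest adjusted p 0.0333), Slc2a6 in 3 (0.0419) and Slc16a7 in 4 (0.0134), while Bsg passed in 0 (lowest 0.0667). Leaving out WT replicate 2 was among those for Slc2a1 and Slc16a7, and leaving out DM replicate 1 for Slc16a7. Slc2a8 had a change of 0.15 (adjusted p 0.254) and Slc2a4 one of -0.09 (0.364), with overlapping groups, and Slc2a2 was below the filter.

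Fructose 2,6-bisphosphate is the activator of phosphofructokinase, and 1 of the 5 genes that set its level fell. Pfkfb4 had values of 10.24, 10.42 and 10.39 in WT, against 9.92, 10.03 and 10.16 in DM, with a change of -0.31 (SE 0.0816, limma adjusted p 0.032). Its call was lost in 5 of 12 alternatives, when WT replicate 2 (adjusted p 0.061) or 3 (0.0653) or DM replicate 1 (0.111) or 2 (0.102) was left out and with no filter on the mean (0.0776). Pfkfb3, the isoform known for its strong kinase activity, had a change of -0.08 (adjusted p 0.576), Pfkfb1 one of -0.09 (0.43), Pfkfb2 one of 0.14 (0.346) and Tigar, which breaks the activator down, one of 0.17 (0.24), and the groups overlapped for each.

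At the entry of pyruvate into mitochondria, 12 of 13 listed genes were tested, 2 rose and 1 fell. Pdp1, a phosphatase that activates pyruvate dehydrogenase, rose from 8.33, 8.45 and 8.37 in WT to 8.76, 8.95 and 8.71 in DM, with a change of 0.42 (SE 0.08, limma adjusted p 0.00966) called in each of the 12 alternatives. Mpc1, a subunit of the mitochondrial pyruvate carrier, changed by 0.34 (adjusted p 0.0365), and Pdk1, a kinase that switches pyruvate dehydrogenase off, changed by -0.31 (adjusted p 0.0461). Mpc1 and Pdk1 each lost the call in 6 of 12 alternatives, with highest adjusted p values of 0.134 and 0.16, and leaving out WT replicate 1 or any single DM library was among those for both.

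Among 11 genes of the hypoxia factor, its oxygen sensors and Myc, 1 fell. Egln3, an oxygen-sensing prolyl hydroxylase that is itself a target of the hypoxia factor, had values of 10.91, 10.92 and 10.77 in WT, against 9.67, 9.87 and 9.96 in DM. The groups were far apart, and Egln3 fell by 1.03 (SE 0.0861, limma adjusted p 0.000176), and on the linear scale it decreased by 51%. The transcripts of the factors did not pass. Hif1a stood at a mean of 12.46 in WT and 12.49 in DM, with a change of 0.03 (adjusted p 0.835), and Myc had a change of -0.08 (adjusted p 0.6), both named after their values were seen.

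Of 15 targets of the hypoxia factor outside glycolysis, 3 fell, 1 rose and 11 did not pass, with a median change of -0.14. The median was -0.06 when DM replicate 2 was left out, -0.05 with a filter at a mean of at least 5 and -0.08 after quantile normalization, and the number called was 2 when DM replicate 1 or 2 was left out. Vegfa, a growth factor for blood vessels, had values of 9.88, 9.78 and 9.44 in WT, against 8.46, 8.39 and 8.61 in DM, with a change of -1.22 (SE 0.111, limma adjusted p 0.000331). Bnip3, a mitophagy receptor, changed by -0.59 (SE 0.0945, adjusted p 0.00552) and had DM values of 10.10, 10.08 and 10.09. Vegfa and Bnip3 had no overlap between groups and, like Egln3, were called in each of the 12 alternatives. Ankrd37 changed by -0.36 (adjusted p 0.0342) and Bhlhe40, a transcriptional repressor, by 0.28 (adjusted p 0.0436). Ankrd37 lost its call in 4 of 12 alternatives (without WT replicate 2 or 3 or DM replicate 1 or 2, highest adjusted p 0.109) and Bhlhe40 in 7, among them leaving out any single library other than WT replicate 2 and quantile normalization, which gave 0.10 (adjusted p 0.282).

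**Figure D4:**
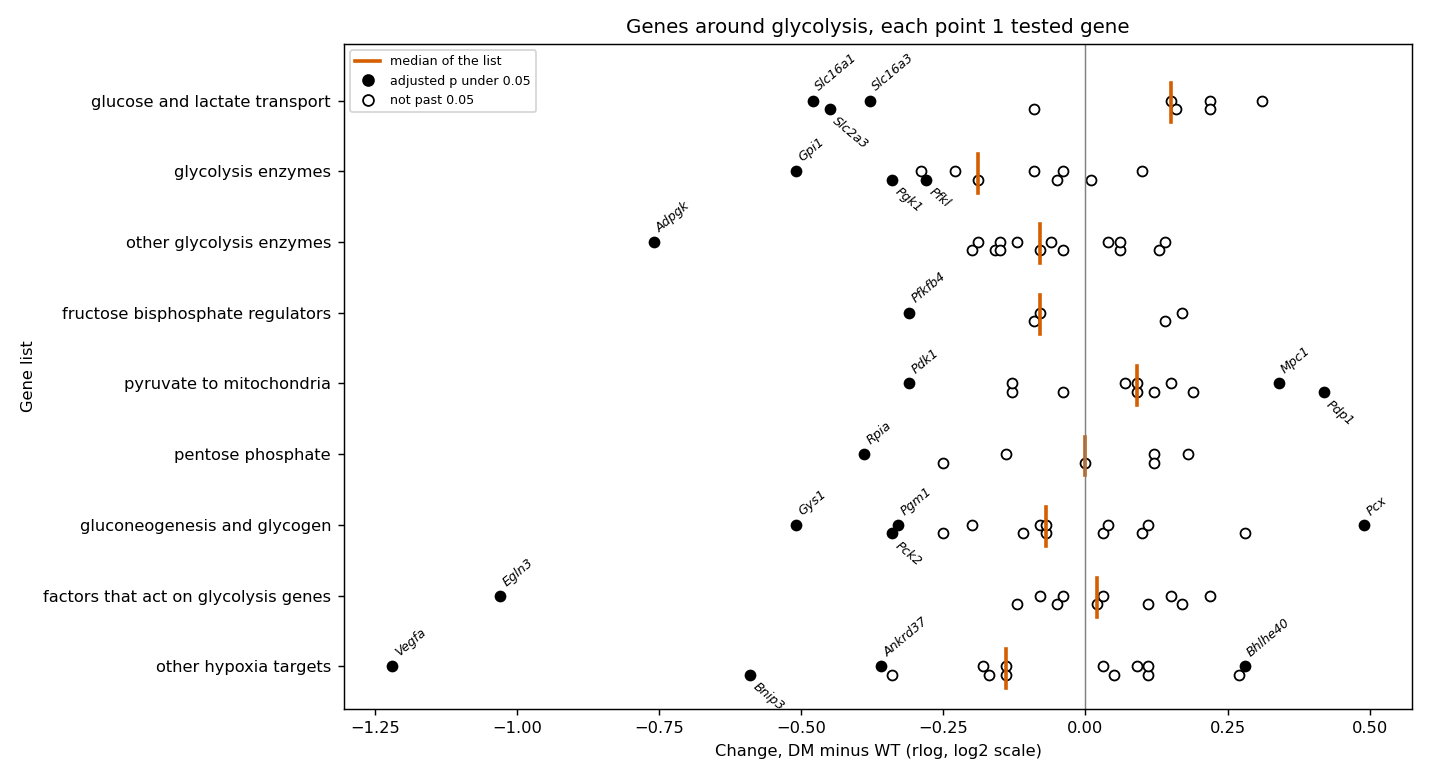
Each point is the change (DM minus WT, rlog on the log2 scale) of 1 tested gene in 1 of 9 lists around glycolysis, filled and named where the adjusted p was under 0.05, and orange bars mark the median of each list. Vegfa at -1.22 and Egln3 at -1.03 lie farthest to the left, Pcx at 0.49 and Pdp1 at 0.42 farthest to the right, and the median of the glycolysis enzymes is at -0.19.

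Over these lists, not counting the members, 18 genes passed. Leaving out WT replicate 1 gave 11, DM replicate 1 gave 10 and DM replicate 2 gave 8. Among all genes tested 13.9% passed. By list the share was 6.67% for other enzymes, 9.09% for the factors, 14.3% for pentose phosphate and 20% for fructose bisphosphate regulators. It was 25% for pyruvate entry, 26.7% each for gluconeogenesis with glycogen and for other hypoxia targets, and 33.3% for carriers.

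Markers of some cell types and of the cell cycle moved in the same libraries, and their part in the changes of the glycolysis genes was not tested. Of 12 tested neutrophil markers 10 fell (median change -1.45; Mpo -4.23, Elane -3.96, Prtn3 -3.37 and Cebpe -1.74), and the log2 of their summed linear values ran from 18.53 to 18.99 in WT and from 17.04 to 17.91 in DM. Of 12 tested monocyte and macrophage markers 8 rose and 2 fell (median 0.59; Ly6c2 -1.13, Ctss 0.96, Gpnmb 0.96 and Cd68 0.94), with sums from 18.24 to 18.94 in WT and from 19.23 to 19.60 in DM. Of 18 proliferation genes 15 fell (median -0.42; Cdc20 -0.66, Plk1 -0.61, Kif11 -0.55 and Rrm2 -0.55), with sums from 16.41 to 16.57 in WT and from 16.02 to 16.21 in DM. For mast cells and basophils 1 of 8 markers passed (Hdc -0.62), for megakaryocytes 2 of 7 (Gp1ba 0.55 and Vwf 0.54), and for erythroid cells 0 of 9 with limma (0 at an unadjusted p under 0.05). The share that passed was 83.3% in each of the neutrophil, monocyte and macrophage, and proliferation lists. It was 28.6% for megakaryocyte, 25% for progenitor and 12.5% for mast cell and basophil markers, against 13.9% of all genes tested. Hdc lost its call in 7 of 12 alternatives, among them leaving out WT replicate 2 or 3 or DM replicate 2 or 3 (highest adjusted p 0.139), and Gp1ba in 2, quantile normalization (0.0611) and leaving out DM replicate 2 (0.0626). The summed markers of mast cells and basophils ran from 18.79 to 19.15 in WT and from 18.80 to 19.27 in DM, those of megakaryocytes from 14.22 to 14.48 and from 14.50 to 14.88, and those of erythroid cells from 12.91 to 13.02 and from 12.69 to 12.99. In the macrophage list C1qa was below the filter, and in the erythroid list Hba-a1 was at the lowest value of the table, -1.97, in all libraries. In such bulk samples, fewer cells of a type and less RNA per cell cannot be told apart. Of the markers of the labelled cells, Kit had a mean of 14.39 in WT and 14.60 in DM, while Flt3 was low, at 4.54 and 4.24. The level of Kit alone does not show that progenitors remained after 8 days of culture. Mast cell and basophil markers summed to 18.79 or more in each library. Of 8 progenitor markers 2 fell (Myb by 0.65 and Flt3 by 0.30, limma adjusted p 0.0127 and 0.0494). Myb lost the call when DM replicate 2 or 3 was left out. Flt3 lost it in 9 of 11 alternatives, among them leaving out any single library other than WT replicate 2. Mllt3 itself, which both vectors supply, had values of 12.87, 12.60 and 12.44 in WT, against 12.44, 12.03 and 11.99 in DM (change -0.48, adjusted p 0.0448), and these do not separate the vector from the endogenous gene. Its call was lost in 6 of 12 alternatives, among them leaving out WT replicate 1 or 2 or DM replicate 2 or 3 (highest adjusted p 0.161).

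The genes whose values over the 6 libraries were most like the mean of the members were Cgas (Pearson's r 0.998), Mfsd13a (0.998), Ap3s1 (0.994), Hdac1 (0.991) and Nipsnap1 (0.99), among 11819 genes with a mean of at least 6 that are in no list. Hdac1, a histone deacetylase, had values of 11.43, 11.47 and 11.32 in WT, against 11.22, 11.26 and 11.21 in DM. None of the 5 passed the test of DM against WT, with changes from -0.30 to -0.09. A likeness over 6 libraries is a description, since 290 genes (2.45%) reached an r of at least 0.9 and all points share the 2 groups and the scaling of each library.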

How the data were processed

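The data were 6 RNA-seq libraries, 3 WT and 3 DM. The authors deposited rlog values, a log2 unit; this was read from the table's name and its values, which are not whole and lie between -1.97 and 21.88. The submitters' processing notes name cutadapt 2.6, STAR 2.7.3, DESeq2 1.30.0 and the build mm10, without roles or order; the counting tool, strand and annotation are not given in the sources used here. The values hold no depth, and no interval from counting was given.

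The 142699 lines were merged into 55487 genes, because lines were repeated with identical values. Identifiers of 97.9% of genes matched GENCODE M21 (GRCm38) with their version, which supplied coordinates and exon lengths; Tpi1, Ldhb, Myc and Vegfa were among those matched without it. Upstream sequences came from RefSeq on GRCm38.p6, with all 10 genes matched. The 2 groups were compared in R 4.3.3 with limma 3.58.1 (lmFit, then eBayes allowing for a trend of variance with mean), with no covariate. The fit took the 18766 genes whose mean was 3 or more, Benjamini-Hochberg adjustment ran over all of them, and the threshold was 0.05. A change is the DM mean minus the WT mean of rlog values, and percentages are that change on the linear scale. The fit was tested on simulated data.

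The members and lists were chosen with earlier results of these data known. Genes named are all members, all tested genes of the lists of other enzymes, copies, carriers and fructose bisphosphate regulators, up to 4 called genes of each other list with the largest changes, Mllt3, and the 5 genes most like the members. Kit was named after its values were seen. Not every gene of the list of other enzymes is reported here. Results were recomputed without the filter, with a filter at 5, without the variance trend, after quantile normalization, after centring libraries on their medians, with a replicate block, and without each library in turn. Figures were drawn with matplotlib 3.10.9.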

Additional observations from a re-analysis of the deposited data

How the results depend on the processing

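The direction of each called member was the same in all 12 alternatives, and of 131 values of members under alternatives, 105 kept their side of the threshold, 11 lost the call, 15 gained it and 0 calls changed sign. The number of called members, 3 as reported, was 1 with no filter on the mean, 5 with a mean of at least 5, 5 with no mean-variance trend, 5 after centring on the median and 8 after quantile normalization, and from 1 to 4 with 1 library left out; the cause was not tested. The median change of the members was -0.34 after quantile normalization. That setting also took the median of the near-identical copies to 0.06 and of the factors that act on glycolysis genes to -0.09, against -0.01 and 0.02 as reported, and the share of higher genes among all called genes to 51.3% from 66.1%. With 1 library left out, called genes ranged from 1119 to 3474 over the whole table (2611 as reported), and called genes of the other lists around glycolysis from 8 to 17 (18 as reported). What depth limits could not be given, since the values hold none. The replicate numbers were not taken to pair the samples in the main fit. Deviations of same-numbered libraries from their group means correlated at 0.491, 0.116 and 0.041. WT replicates 1 and 2 each correlated best with the DM library of the same number, and WT replicate 3 with DM replicate 2 (0.124). These values do not decide whether the numbers mark pairs. With a replicate block, 6 members (Hk2 and Tpi1 and Eno1 in addition) and 3742 genes in all were called. The planned count models were not run, because they need counts.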

Other observations

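The branches that leave glycolysis were read from 2 further lists. In the pentose phosphate pathway, which takes glucose 6-phosphate to NADPH and ribose, 1 of 7 genes fell and 0 rose. Rpia, the isomerase that makes ribose 5-phosphate, had values of 11.02, 10.92 and 10.93 in WT, against 10.62, 10.52 and 10.57 in DM, with a change of -0.39 (SE 0.066, limma adjusted p 0.00689) that was called in each of the 12 alternatives. The groups did not overlap. The median of the list was 0.00 (-0.10 after quantile normalization), and G6pdx, the entry step, named after its values were seen, had a change of -0.14 (adjusted p 0.279).

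Among 15 tested genes of gluconeogenesis and glycogen, 3 fell and 1 rose. Gys1, the glycogen synthase of most tissues, had values of 11.23, 11.32 and 11.10 in WT, against 10.58, 10.76 and 10.79 in DM, with a change of -0.51 (SE 0.0832, limma adjusted p 0.00614) called in each of the 12 alternatives. Pgm1, a phosphoglucomutase that links glucose 6-phosphate to glycogen, changed by -0.33 (adjusted p 0.0341) and Pck2, the mitochondrial phosphoenolpyruvate carboxykinase, by -0.34 (0.0445). Pcx, pyruvate carboxylase, had values of 9.42, 9.61 and 9.36 in WT, against 10.18, 10.02 and 9.66 in DM, with a change of 0.49 (adjusted p 0.0278). The groups did not overlap for any of these 4 genes. Pgm1 lost its call in 6 of 12 alternatives (no filter on the mean, and leaving out any single library other than WT replicate 3, highest adjusted p 0.135). Pck2 lost it in 4 (no filter, and leaving out WT replicate 1 or DM replicate 2 or 3, highest 0.162), and Pcx in 4 (leaving out WT replicate 1 or 3 or DM replicate 1 or 2, highest 0.0942).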
